A study of Mus musculus with 3 samples.

Results

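Scavenger receptors and Fc gamma receptors are the surface proteins through which macrophages take up modified lipoproteins, dying cells, microbes and antibody-coated particles. Of this receptor group, 10 genes were followed here: the scavenger receptors Marco, Msr1, Cd36, Scarb1 and Olr1, and the Fc gamma receptors Fcgr1, Fcgr2b, Fcgr3 and Fcgr4 with their shared signalling chain Fcer1g. A probe was assigned to a gene when its gene name on the array equalled the symbol, which gave 15 of 56605 probes for 10 of 36870 gene names. Between LPS alone and either lactobacillus treatment, 8 members could be compared. Of these, Fcgr3, an activating low-affinity Fc gamma receptor, was the single member that differed by at least 2-fold. Of all genes compared, 6.3% after LOC1 and 6.18% after LOC3 passed 2-fold. A count of 1 of 8 is too small to be read against these shares. Fcgr3 fell 3.14-fold after LOC1 and 2.68-fold after LOC3 by its brighter probe, and 2.19-fold and 2.10-fold by its dimmer. The inhibitory receptor Fcgr2b was 1.74-fold and 1.51-fold lower, the class A scavenger receptor Msr1 1.63-fold and 1.49-fold lower, and Marco 1.30-fold and 1.33-fold higher, all short of 2-fold.

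The cells were RAW264.7, a line of mouse macrophages transformed by a leukemia virus, and every array came from cells given lipopolysaccharide (LPS), the bacterial outer membrane component sensed by Toll-like receptor 4 (TLR4), for 3 h. The 3 groups were LPS with no bacteria, L. plantarum LOC1 followed by LPS, and L. plantarum LOC3 followed by LPS, both strains being tea leaf isolates. The labels give 12 h with the lactobacilli, while the methods give a longer time. Each group had 1 array, all on 1 slide, so that no replicate error, test or p-value is available for any difference between groups, and array and treatment cannot be told apart. The array of unchallenged macrophages was not analysed here, and values against unchallenged cells come from the deposited log2 ratios.

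Scavenger receptors are grouped into classes by structure rather than by ancestry. Msr1 and Marco are trimeric class A receptors that bind polyanions, oxidised or acetylated lipoproteins and bacterial surfaces; Cd36 and Scarb1 are class B receptors, the first for oxidised lipoproteins and fatty acids and the second for high-density lipoprotein; and Olr1, also called LOX-1, is a C-type lectin receptor for oxidised low-density lipoprotein known mainly from endothelium. Fc gamma receptors bind the constant part of immunoglobulin G. Fcgr1 binds monomeric antibody with high affinity, Fcgr3 and Fcgr4 need immune complexes, and all of them depend on Fcer1g, whose activation motif recruits the kinase Syk. Fcgr2b carries an inhibitory motif in its own tail and recruits the phosphatase Inpp5d, so that the balance of Fcgr2b with the activating receptors sets the threshold of the response to immune complexes.

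In the mm9 positions of the file, 6 of the probes of Fc receptor genes lay within 268.866 kb of chromosome 1, from the brighter Fcgr2b probe at chr1:172890988-172891047 to the Fcer1g probe at chr1:173159794-173159853, and the Fcgr1 probe lay on chromosome 3. Fcgr2b and Fcgr3 are related in sequence over their extracellular parts, and each was read by a pair of probes. The first 30 bases of these 60-base probes are shown, since the main differences rest on them:
Fcgr2b, brighter probe, chr1:172890988-172891047, minus strand: acttctgtgagtcctgaaaccaacagacac
Fcgr2b, dimmer probe, chr1:172895833-172895892, minus strand: tcgcagccattgttattatcctagtatcct
Fcgr3, brighter probe, chr1:172981647-172981722, minus strand: ttacaagcaggccgggatgtttggttcttc
Fcgr3, dimmer probe, chr1:172984129-172984188, minus strand: ctacaaaagtaatttctctatcccaaaagc
None of the 15 member probes shared a run of 20 bases with a probe of any other gene on the array, on either strand. Which exon each probe lies in was not determined, because no gene models of mm9 were used here.

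Promoters of the Fc gamma receptors whose deposited ratios or array differences are given here, and of Marco, were read for short motifs of factors that act in LPS-challenged macrophages. The table of promoters used here, RefSeq on GRCm38.p6, held 8 of the 10 members, without Msr1 and Scarb1. The 250 bases before the start site are printed 5′ to 3′ on the strand of the gene, with motif matches in capitals:
Marco, chr1:120505025-120505274, minus strand: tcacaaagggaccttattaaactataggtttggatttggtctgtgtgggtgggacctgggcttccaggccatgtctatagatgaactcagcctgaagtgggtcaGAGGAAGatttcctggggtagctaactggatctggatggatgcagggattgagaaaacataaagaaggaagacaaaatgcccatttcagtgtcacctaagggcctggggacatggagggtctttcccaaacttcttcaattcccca
Fcgr1, chr3:96293970-96294219, minus strand: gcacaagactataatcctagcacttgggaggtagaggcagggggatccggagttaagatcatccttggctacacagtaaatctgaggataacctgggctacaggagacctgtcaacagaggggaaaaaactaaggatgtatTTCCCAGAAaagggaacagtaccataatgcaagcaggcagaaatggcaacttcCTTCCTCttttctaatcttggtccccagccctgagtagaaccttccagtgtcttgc
Fcgr4, chr1:171018676-171018925, plus strand: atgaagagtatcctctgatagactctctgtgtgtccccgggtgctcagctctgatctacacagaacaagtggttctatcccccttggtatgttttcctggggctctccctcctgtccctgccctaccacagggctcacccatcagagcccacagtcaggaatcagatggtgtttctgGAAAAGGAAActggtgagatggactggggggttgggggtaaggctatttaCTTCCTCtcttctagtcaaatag
Fcgr3, chr1:171059404-171059653, minus strand: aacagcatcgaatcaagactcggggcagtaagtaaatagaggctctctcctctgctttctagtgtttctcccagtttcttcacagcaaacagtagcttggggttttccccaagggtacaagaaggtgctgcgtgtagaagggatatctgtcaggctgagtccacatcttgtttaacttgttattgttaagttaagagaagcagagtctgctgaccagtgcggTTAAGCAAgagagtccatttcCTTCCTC
Fcgr2b, chr1:170976072-170976321, minus strand: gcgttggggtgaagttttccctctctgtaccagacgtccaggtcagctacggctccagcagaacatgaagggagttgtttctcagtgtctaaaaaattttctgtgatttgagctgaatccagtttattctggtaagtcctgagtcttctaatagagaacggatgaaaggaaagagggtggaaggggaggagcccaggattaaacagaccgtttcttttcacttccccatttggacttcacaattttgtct
Searched on both strands over 300 bases, 250 before and 50 after the start site, were GAS (TTCNNNGAA), ISRE (GAAANNGAAA), NF-kB (GGGANNTTCC), AP-1 (TGANTCA), PU.1 (GAGGAAG), C/EBP (TTGCNNAA), ARE (TGACNNNGC) and DR1 (AGGTCANAGGTCA). With the base before the start site counted as -1, the GAS motif lay at -109 to -101 of Fcgr1 and the ISRE at -73 to -64 of Fcgr4; 8.3% and 3.44% of all 32851 promoters hold these letters. The PU.1 letters, in 13.6% of promoters, lay at -146 to -140 of Marco, -56 to -50 of Fcgr1, -23 to -17 of Fcgr4 and -7 to -1 of the first of 2 Fcgr3 start sites, on the other strand in all but Marco. Fcgr3 also held the C/EBP letters at -28 to -21, and Olr1 an AP-1 match at -60 to -54; these motifs are in 10.8% and 7.81% of promoters. None of these matches overlapped another. No match was found in Fcgr2b, Fcer1g or Cd36, and none of NF-kB, ARE or DR1 in any member. A match describes the letters only.

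Values are given as the processed intensity of the probe and as its relative intensity, the intensity divided by the 75th percentile of the array. Of the 15 member probes, 12 were well above background on all 3 arrays and 3 on none, and no spot was saturated. Noise between spots alone, read from 269 bright probes printed 10 times on each array, gave a technical SD of 0.06 on the log2 scale for a difference of 1 bright spot on each of 2 arrays, and 0.30 from 10 dim probes. Values of 2 technical SDs, 0.12 and 0.60, are used below as the limit of spot noise, which leaves out the variation between cultures. All 8 macrophage markers were well above background on every array, and they did not go one way: relative to the 75th percentile, 3 were above LPS and 5 below it after LOC1, and 4 and 4 after LOC3. Their summed intensities, unscaled, of 486401 with LPS, 388251 after LOC1 and 421559 after LOC3 rest mainly on Lyz2 and Csf1r. Csf1r differed from LPS by -0.89 and -0.70 on the log2 scale and Lyz2 by -0.29 and -0.11, while Adgre1 stood at 0.57 and 0.38 and Cd68 at 0.30 and 0.27. Markers of other cell types summed to 2563, 2085 and 2047, with 8 of 24 detected on all arrays and 12 on none. The part of these markers in the member differences was not tested.

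The activating Fc gamma receptors differed among themselves: Fcgr3 fell at least 2-fold after both strains, while Fcgr1 and Fcgr4 lay 1.02-fold to 1.25-fold above LPS alone, with the sign for Fcgr1 after LOC1 depending on the scaling. Fcgr3 read 31223 with LPS alone, 9191 after LOC1 and 10827 after LOC3 by its brighter probe, relative intensities of 56.3, 17.9 and 21.0. Its dimmer probe read 11323, 4775 and 5015. Both probes were highest with LPS alone and put the lactobacillus arrays close to each other. The log2 difference from LPS was -1.65 after LOC1 and -1.42 after LOC3 by the brighter probe, and -1.13 and -1.07 by the dimmer, so that both probes passed 2-fold in the same direction and differed in size by more than spot noise. In RNA of a whole culture, fewer cells that express a gene and less of its RNA per cell cannot be told apart. Of all genes compared, 1.82% differed by at least as much as the brighter Fcgr3 probe after LOC1 and 2.66% after LOC3. For the dimmer probe these shares were 4.71% and 5.35%.

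Fcgr4, a receptor for immunoglobulin G2 complexes, read 32881 with LPS, 33664 after LOC1 and 38373 after LOC3. The relative intensities were 59.3, 65.6 and 74.3, lowest with LPS. Its log2 differences from LPS were 0.15 and 0.33, far under 2-fold. Both exceeded spot noise at this scaling, but the LOC1 value ranged from 0.07 under quantile normalization, within spot noise, to 0.36 under median scaling. Fcgr1, the high-affinity receptor, read 22764, 21582 and 23386, with relative intensities of 41.0, 42.1 and 45.3. The 3 arrays were nearly level, at log2 differences of 0.04 after LOC1, within spot noise, and 0.14 after LOC3, just past it but within it at 0.05 under quantile normalization. The LOC1 sign of Fcgr1 turned to -0.02 under quantile normalization and the value was 0.25 under scaling by the array median.

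Fcer1g, the chain on which Fcgr1, Fcgr3 and Fcgr4 depend at the surface, read 163887 with LPS, 145508 after LOC1 and 150987 after LOC3. Its relative intensities of 295, 284 and 292 differed by no more than spot noise, with log2 differences of -0.06 and -0.01. Their sign was not settled: they were 0.16 and 0.17 under median scaling and -0.16 and -0.17 under quantile normalization.

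The inhibitory receptor Fcgr2b read 37029 with LPS, 19708 after LOC1 and 22817 after LOC3 by its brighter probe, relative intensities of 66.7, 38.4 and 44.2. The dimmer probe read 14455, 8095 and 8711. LPS alone was the highest array for both. The log2 differences from LPS were -0.80 after LOC1 and -0.59 after LOC3 by the brighter probe, and -0.72 and -0.63 by the dimmer, all beyond spot noise and short of 2-fold. Across the alternative settings the LOC1 value ranged from -0.89 to -0.58.

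**Figure D1:**
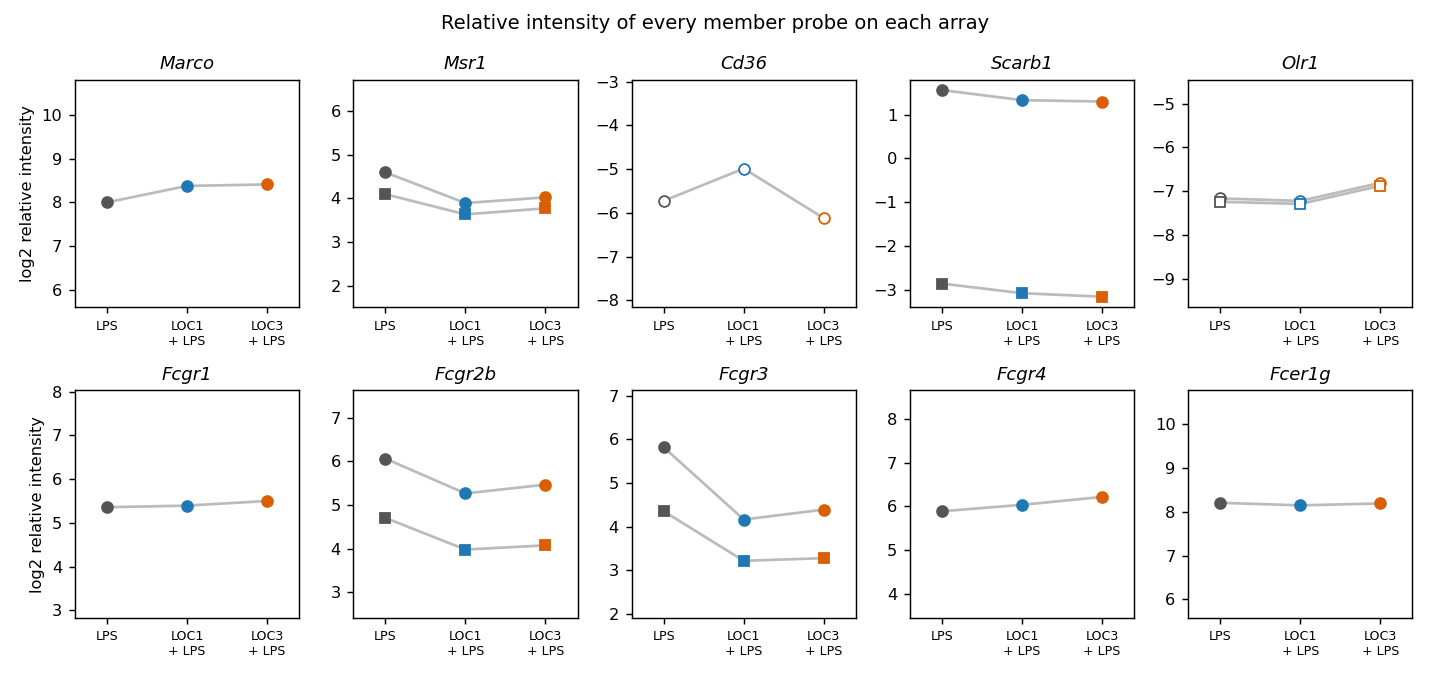
Log2 relative intensity (intensity over the 75th percentile of the array) of each member probe on the arrays of LPS, LOC1 + LPS and LOC3 + LPS, circles for the brighter and squares for the dimmer probe of a gene, open where the probe was not well above background; each panel spans the same log2 range. Fcgr3, Fcgr2b and Msr1 are highest with LPS alone by both probes, while Fcer1g stays between relative intensities of 284 and 295.

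Among the class A scavenger receptors, the pair of members lay on opposite sides of LPS alone. Marco, the receptor of marginal zone and alveolar macrophages that binds bacteria directly, read 142337 with LPS, 170787 after LOC1 and 175927 after LOC3. Its relative intensities of 257, 333 and 341 were lowest with LPS. The log2 differences were 0.38 and 0.41, beyond spot noise, and stayed above 0 in every setting tried, from 0.26 to 0.59. Msr1, the type A receptor for acetylated lipoprotein, read 13380, 7612 and 8385 by its brighter probe and 9467, 6362 and 7047 by its dimmer. LPS was the highest array by both. The log2 differences were -0.70 and -0.57 by the brighter probe, and -0.46 and -0.32 by the dimmer, all short of 2-fold and beyond spot noise.

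The class B receptor Scarb1 read 1641 with LPS, 1295 after LOC1 and 1274 after LOC3 by its brighter probe, relative intensities of 2.96, 2.52 and 2.47. Its log2 differences of -0.23 and -0.26 were beyond spot noise and came down to -0.01 and -0.08 under median scaling. The dimmer probe, at 76.3, 60.6 and 57.7, gave -0.22 and -0.30, within the noise of dim spots. Cd36 read 10.5, 16.2 and 7.41 and was not well above background on any array, and the probe pair of Olr1 read between 3.3 and 4.6 with the same result. No fold is given for either gene.

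Counted by the brightest probe of each gene, 8 of the 10 members could be compared. With LOC1, 0 of 8 rose and 1 fell by at least 2-fold, against 2.49% and 3.81% of 20035 genes, or 6.3% in either direction. With LOC3, 0 rose and 1 fell, against 3% and 3.18% of 19817 genes, or 6.18% in either direction. Fcgr3 was that member in both, and 1 of 8 is too small a count to be read against these shares. Below LPS were 5 of 8 members with each strain, against 49.8% and 45.9% of all genes, and the median member difference was -0.14 with either strain, against 0.00 and 0.01 over all genes. This direction depended on the scaling: under median scaling 4 of 8 members lay below LPS after each strain, the member medians were 0.072 and 0.045, and those of all genes 0.22 and 0.20. Over the 5 members with deposited ratios for both arrays, which leave out Fcgr3, Msr1 and Fcer1g, the medians were 0.069 and 0.18. Both comparisons use the same LPS array, so that a reading of that array enters both.

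**Figure D2:**
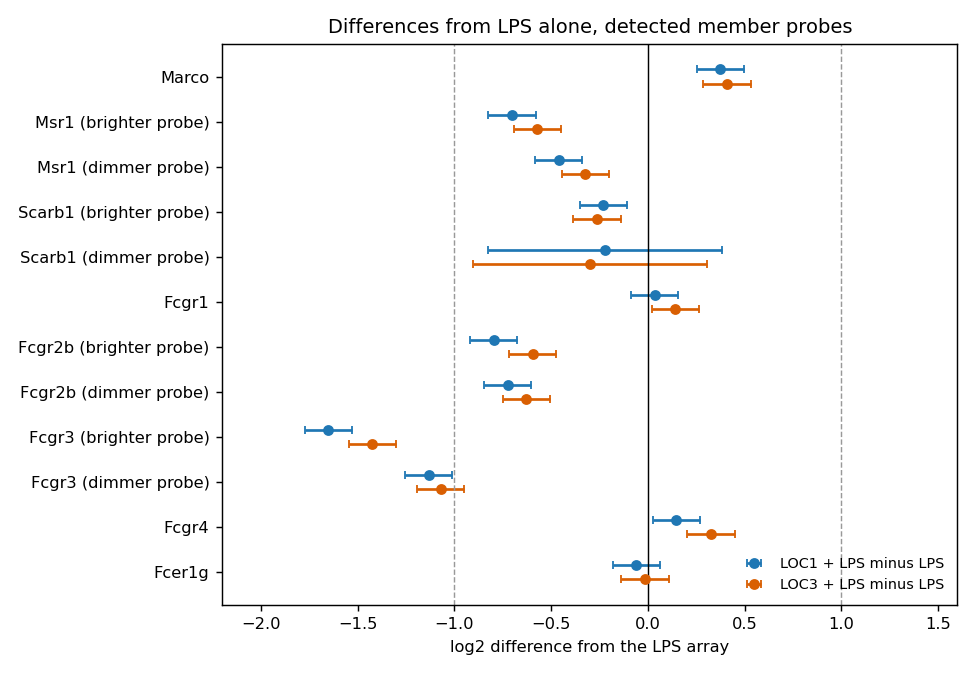
Log2 difference of LOC1 + LPS and LOC3 + LPS from LPS alone for the member probes well above background; bars show 2 technical SDs of spot noise, not the spread between cultures, and dashed lines mark 2-fold. Both Fcgr3 probes lie below the lower line (-1.65 and -1.42 by the brighter), and Marco lies above 0 at 0.38 and 0.41.

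Between the strains, 0 of 8 members differed by 2-fold, against 2.66% of 19403 genes, 0.799% higher and 1.87% lower after LOC1, and 7 of 8 were lower after LOC1, against 52.4% of all genes; under quantile normalization it was 5 of 8, against 47.3%. The log2 differences, LOC1 minus LOC3, were -0.23 for Fcgr3, -0.20 for Fcgr2b, -0.18 for Fcgr4 and -0.13 for Msr1, beyond spot noise by the brighter probe, though Msr1 was within it, at -0.10, under quantile normalization and median scaling. The dimmer probes of Fcgr3 and Fcgr2b gave -0.06 and -0.10, within it. Marco at -0.03, Scarb1 at 0.03, Fcgr1 at -0.11 and Fcer1g at -0.04 did not differ between the strains beyond spot noise, and the signs of Marco and Fcer1g turned under quantile normalization. The median over the 8 members was -0.12.

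How the members stood against unchallenged macrophages was read from the deposited log2 ratios, listed for an array only where it differed at least 2-fold from the reference. With LPS, 7 of the 15 member probes were listed, 6 higher and 1 lower, against 7.08% and 6.31% of all probes on the array. After LOC1 6 were listed higher and 3 lower, against 7.96% and 8.52%, and after LOC3 5 and 3, against 8.02% and 8.88%. Where a probe was listed for 1 array, its blank values were rebuilt from the intensities, since all columns share 1 reference; these rebuilt values lie under 2-fold and are named as such.

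Marco had the highest ratio of the members, at 5.92 with LPS, 6.33 after LOC1 and 6.37 after LOC3 on the log2 scale, or 60.5-fold, 80.4-fold and 82.5-fold above unchallenged cells. Msr1 was listed with LPS alone, at 1.10 or 2.14-fold, and its rebuilt ratios were 0.43 after LOC1 and 0.56 after LOC3. Scarb1 was lower than unchallenged in every array by its brighter probe, at -1.22, -1.42 and -1.45, or 2.33-fold, 2.67-fold and 2.72-fold lower. Its dimmer probe was listed at -1.02 after LOC1 and -1.09 after LOC3, and its LPS value was rebuilt at -0.83. The listed Cd36 ratio of 1.23 after LOC1 rests on signals not well above background on both sides and is given no fold.

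Fcgr1, Fcgr4 and Fcgr2b were above unchallenged cells on all 3 arrays. In the array order LPS, LOC1, LOC3, Fcgr1 stood at log2 ratios of 2.06, 2.12 and 2.24, and Fcgr4 at 2.07, 2.25 and 2.43, or 4.19-fold, 4.75-fold and 5.39-fold. Fcgr2b stood at 2.44, 1.67 and 1.88 by its brighter probe, 5.41-fold, 3.19-fold and 3.68-fold, and at 2.55, 1.86 and 1.96 by its dimmer. Fcgr2b was thus higher than in unchallenged cells on every array and highest with LPS alone.

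Fcgr3 differed from the other Fc gamma receptors in this table. It was not listed with LPS, where the rebuilt log2 ratio was -0.30, and was listed at -1.92 after LOC1 and -1.69 after LOC3, or 3.79-fold and 3.23-fold below unchallenged cells. These ratios are from the brighter probe. The dimmer probe of Fcgr3 and the Fcer1g probe were not listed for any array. If a blank means under 2-fold, the dimmer Fcgr3 probe lay less than 2-fold below unchallenged cells after both strains. Its differences from LPS of -1.13 and -1.07 would then put it above unchallenged cells with LPS alone. The probes would thus disagree in the size of the drop and in the sign with LPS.

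**Figure D3:**
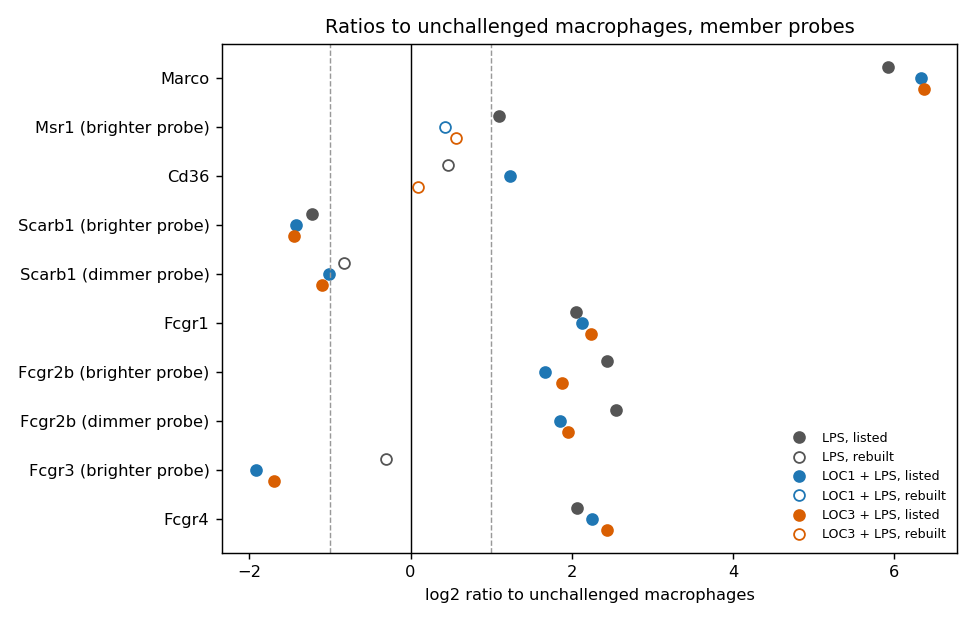
Log2 ratio of each array to unchallenged macrophages for the member probes in the deposited table; filled points are listed ratios, open points were rebuilt from the intensities, and dashed lines mark 2-fold. Marco lies near 6 on every array (5.92 to 6.37), and Fcgr1, Fcgr2b and Fcgr4 lie above 2-fold. By its brighter probe, Fcgr3 is past 2-fold on the lower side after LOC1 and LOC3 (-1.92 and -1.69). Its dimmer probe was not listed and is not shown. Cd36 was not well above background on any array.

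Other genes of these pathways were read from lists of the pathway. The counts in these lists are small, and none is read against the share of all genes printed beside it. Of 15 other scavenger receptors, 10 could be compared and 1 fell at least 2-fold with each strain, against 3.81% of all genes after LOC1 and 3.18% after LOC3. The gene that fell was Lrp1, an endocytic receptor for lipoproteins and protease complexes, at log2 differences of -1.26 after LOC1 and -1.15 after LOC3, where its 3 probes ranged from -2.27 to -0.53 after LOC1 and from -1.72 to -0.08 after LOC3. The median of that list was -0.27 after LOC1 and -0.28 after LOC3, and the 3 compared scavenger receptor members had medians of -0.23 and -0.26. Over all genes the medians were 0.00 and 0.01.

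Of 14 other Fc receptor genes, 9 could be compared, and 3 of these passed 2-fold after LOC1, against 6.3% of all genes. With LOC1, Fcgrt, the neonatal Fc receptor that salvages antibody and albumin, read 893 against 2163 with LPS, a log2 difference of -1.16, and Fcrlb, an intracellular Fc receptor-like protein, fell by 1.12. Fcrla, its relative, rose by 1.62, from an intensity of 18.7 to 53.4. With LOC3, 0 of 9 passed 2-fold, against 6.18% of all genes. The LOC3 differences of Fcgrt, Fcrlb and Fcrla were -0.88, -0.49 and 0.66. Fcrla and Fcrlb were dim on all 3 arrays.

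Of 27 genes that carry Fc receptor signals, all could be compared, and 3 passed 2-fold after LOC1 and 2 after LOC3. Of all genes compared, 6.3% and 6.18% did. Syk, the kinase recruited by Fcer1g, read 3116 with LPS, 7215 after LOC1 and 6353 after LOC3, log2 differences of 1.32 and 1.13. Its 4 probes ranged from 0.60 to 1.34 after LOC1 and all stood above 0 after LOC3, down to 0.05. Blnk, an adaptor for phospholipase signalling, rose by 1.07 after LOC1 and stood at 0.92 after LOC3. The Src family kinase Fgr was lower than with LPS alone, reading 212, 39.3 and 52.8, log2 differences of -2.32 and -1.91. Inpp5d, the phosphatase recruited by Fcgr2b, read 2594, 2364 and 2329 and differed from LPS by -0.02 and -0.05. Against unchallenged cells it was listed lower on every array, at log2 ratios of -2.48, -2.47 and -2.49. Between the strains 1 gene of the list passed 2-fold, against 2.66% of all genes. It was the adaptor Lat, higher after LOC1 by 1.01 at intensities from 27.2 to 54.6. The medians of the list were -0.09 after LOC1 and 0.03 after LOC3, against 0.00 and 0.01 over all genes.

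Complement receptors, which take up opsonised particles beside the Fc receptors, had 0 of 8 compared genes past 2-fold with either strain, at medians of -0.10 and -0.02. Of all genes compared, 6.3% after LOC1 and 6.18% after LOC3 passed 2-fold. Among 11 genes of lipid uptake and handling, 8 could be compared and 2 rose at least 2-fold with both strains. Of all genes compared, 2.49% after LOC1 and 3% after LOC3 rose as far. Fabp4, a fatty acid binding protein of lipid-loaded macrophages, read 161 with LPS, 747 after LOC1 and 435 after LOC3, log2 differences of 2.33 and 1.54, and was listed at 2.12, 4.48 and 3.69 against unchallenged cells. Its relative Fabp5 read 27810, 62187 and 53516, differences of 1.27 and 1.05. The medians of the list were 0.69 and 0.52, against 0.00 and 0.01 over all genes.

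**Figure D4:**
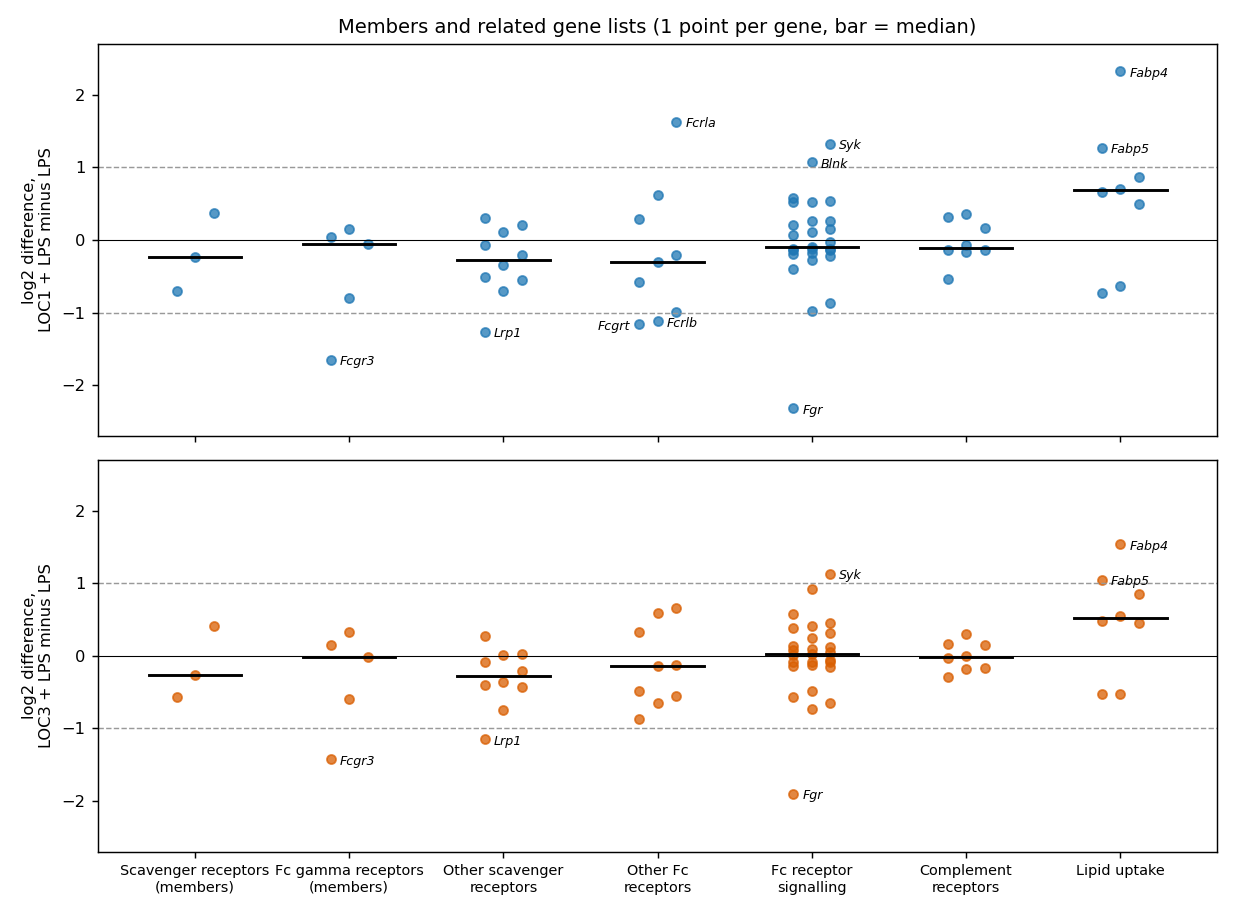
Log2 difference from LPS alone of each compared gene by list, LOC1 above and LOC3 below, with bars at the medians and dashed lines at 2-fold; genes past 2-fold are named. Fcgr3 is the member past 2-fold in both panels (-1.65 and -1.42), beside Lrp1 and Fgr on the lower side and Syk, Fabp4 and Fabp5 on the upper.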

How the data were processed

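RNA of 3 groups was measured on 1-colour Agilent mouse arrays, 1 array each. The authors deposited the processed intensity of each spot, background-corrected by Feature Extraction (12.0.3.1 in the file headers) and not normalized between arrays. They also deposited log2 ratios to a reference shared by the 3 columns, taken as the unchallenged macrophages, with values under 2-fold left blank. The submitters' processing notes name R 3.2.5 and limma.

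Here, outlier spots were left out, spots of a probe were averaged, and each intensity was divided by the array's 75th percentile and compared as log2 (Python 3.11.15, numpy 2.4.6, pandas 2.3.3, matplotlib 3.10.9). A gene was compared where its brightest probe was detected (well above background) on either array, the dim side being raised to the lowest signal well above background. The t-test of the methods needs more than 1 array per group and was not run. Every member was named, and list genes when past 2-fold, apart from Inpp5d, named for its role with its values known. The members and lists were chosen with earlier results of these data known. One gene of the Fc receptor signalling list is not reported here, and the list's counts and medians leave it out. The comparison was tested on simulated data. Alternatives were other scalings, normexp (limma 3.58.1, R 4.3.3, offset 50), other filters, the mean of probes, outliers kept, the deposited ratios and a 3-fold threshold.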

Additional observations from a re-analysis of the deposited data

How the results depend on the processing

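With 1 array per group, leaving out an array or using the slide as a block could not be done. No paired analysis was possible because each group holds a single array. Over the 8 members compared, 15 of 69 single-setting values moved by at least 1 technical SD of a spot difference (0.06 for bright probes) after LOC1 and 17 of 69 after LOC3, and apart from Fcgr3 none of these members passed 2-fold in either. Fcgr3 stayed past 2-fold in every setting that could give it a value, from -1.71 to -1.39 after LOC1 and from -1.52 to -1.24 after LOC3; by the deposited ratios the count of members past 2-fold was 0 for both strains, since Fcgr3 is not listed with LPS, and at 3-fold it was 0 after LOC3. Without filter and floor, 1 member passed 2-fold between the strains, Cd36 at intensities not well above background. The median member difference was 0.072 (LOC1) and 0.045 (LOC3) under median scaling, which moved the median of all genes to 0.22 and 0.20, -0.22 and -0.24 under quantile normalization, 0.069 and 0.18 by the deposited ratios, and -0.058 after LOC1 without filter. 

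Of all genes, 1263 passed 2-fold after LOC1 (499 higher, 764 lower), 1225 after LOC3 (595 and 630) and 517 between the strains. These counts were 421 (213 and 208), 410 (252 and 158) and 153 under normexp, 3847, 3798 and 2825 without filter and floor, and 411, 402 and 286 at 3-fold. They were 712 after LOC3 and 105 between the strains with both arrays well above background, and 773 and 728 by the deposited ratios. Median scaling turned the split to 885 higher and 473 lower after LOC1 and to 872 and 394 after LOC3. The cause of these shifts was not tested. Rebuilding the blank ratios was chosen after seeing the data; of 12931 rebuilt cells, 0 were past 2-fold. Dim probes limit Cd36, Olr1 and the dimmer Scarb1 probe.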

Other observations

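Between Fcgr2b and Fcgr4 on chromosome 1 lies the probe of LOC102638466, at chr1:172916478-172916537 of mm9, a gene that is no member and was singled out after its values were seen. It read 1258 with LPS, 383 after LOC1 and 532 after LOC3, log2 differences of -1.60 and -1.14 from LPS. Against unchallenged cells its deposited log2 ratios were 5.14, 3.57 and 4.04. The chromosome 1 interval from Fcgr2b to Fcer1g held 16 probes of 10 other gene names, 7 of them well above background on all 3 arrays.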
